A study of Rattus norvegicus with 4 samples.

Results

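The regions described here are the H3K27me3 peaks of sham-operated rat sciatic nerve whose centre lies in the first intron of an annotated transcript. They were taken from the authors' peak list as the rows whose detailed annotation begins with intron and names intron 1, which gave 8135 of 129550 peaks (6.28%, 95% Wilson interval 6.15 to 6.41%). A peak in intron 1 whose centre falls on an annotated repeat or CpG island carries that label in place of the intron and is not among them. The list pools 2 H3K27me3 libraries of the sham-operated nerve, and the study also sequenced 2 libraries of the matching input chromatin. All came from male Sprague Dawley rats at postnatal day 42, from the side that had only the skin opened, taken 1 day after the nerve of the opposite limb was cut. The control nerve is therefore not that of an unoperated animal, and whether animals were pooled is not given in the sources used here.

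H3K27me3 is placed on nucleosomes by the Polycomb complex PRC2 and marks genes that are kept silent, above all regulators of other cell lineages. At such genes the mark often spreads from a CpG-rich promoter into the gene body, and the first intron is the first stretch of non-coding sequence that it meets. First introns are on average the longest introns of vertebrate genes and hold many enhancers, so a peak there can belong to a promoter domain or stand far from any start site. In the sciatic nerve, axons run among Schwann cells and the cells of the nerve sheaths and vessels. In bulk tissue a low score from fewer cells with the mark and from less mark per cell cannot be told apart.

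Each peak carries a pooled score, and no library has values of its own. There is therefore no spread between replicates and no test across samples, and every comparison below is a description. Intervals of shares (Wilson) and of medians (from order statistics) treat peaks as independent and cover counting error only. Scores are those of the authors, on a scale that is not stated. Among the 5417 first-intron peaks with a score under 10 there were only 38 different scores, with a median step of 0.21 between them, so low scores are coarse. Positions of peaks are on rn5.

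Promoter sequences are shown for the 3 genes with the highest-scoring first-intron peaks that cover the transcription start site (TSS), for the nerve repair gene Gdnf, and for 2 genes with many first-intron peaks of which none comes near the TSS. Each is the stretch of 250 bases before the gene start from RefSeq on GRCr8, a newer build than that of the peaks, so the start may not be the TSS that the authors' annotation used. Capitals mark the dinucleotide CG, the letters at which vertebrate DNA is methylated and which cluster in CpG islands. CG reads the same on both strands. Shh is not shown.

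Pax6 (chr3:112590346-112590595, plus strand): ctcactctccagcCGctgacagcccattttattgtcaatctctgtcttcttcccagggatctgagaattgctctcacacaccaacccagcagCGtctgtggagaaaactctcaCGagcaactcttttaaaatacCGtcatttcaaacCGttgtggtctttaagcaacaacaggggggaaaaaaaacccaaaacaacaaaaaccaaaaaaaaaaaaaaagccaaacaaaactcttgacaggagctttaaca
Sim1 (chr20:55410327-55410576, plus strand): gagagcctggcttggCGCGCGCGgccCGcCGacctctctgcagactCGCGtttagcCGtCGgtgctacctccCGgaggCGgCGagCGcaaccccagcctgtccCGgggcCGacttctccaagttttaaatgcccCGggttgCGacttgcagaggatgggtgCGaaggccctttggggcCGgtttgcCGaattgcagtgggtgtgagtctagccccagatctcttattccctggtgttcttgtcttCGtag
Nr2e1 (chr20:47653465-47653714, minus strand): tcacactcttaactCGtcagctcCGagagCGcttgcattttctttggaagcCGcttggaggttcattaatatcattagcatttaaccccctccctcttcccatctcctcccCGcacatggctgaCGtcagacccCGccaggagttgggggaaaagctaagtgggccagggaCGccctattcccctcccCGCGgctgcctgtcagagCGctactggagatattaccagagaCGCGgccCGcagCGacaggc
Gdnf (chr2:58621077-58621326, plus strand): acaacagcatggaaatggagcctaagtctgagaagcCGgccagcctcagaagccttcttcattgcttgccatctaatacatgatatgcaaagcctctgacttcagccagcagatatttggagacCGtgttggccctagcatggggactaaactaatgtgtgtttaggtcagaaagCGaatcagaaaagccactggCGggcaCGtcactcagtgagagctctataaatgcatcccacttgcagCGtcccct
Mecom (chr2:114837643-114837892, plus strand): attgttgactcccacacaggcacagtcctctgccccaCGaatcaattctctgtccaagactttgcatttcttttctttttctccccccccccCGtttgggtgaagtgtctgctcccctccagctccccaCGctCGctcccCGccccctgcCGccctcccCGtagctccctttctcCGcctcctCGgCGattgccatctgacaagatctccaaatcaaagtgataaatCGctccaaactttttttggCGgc
Macf1 (chr5:141233891-141234140, minus strand): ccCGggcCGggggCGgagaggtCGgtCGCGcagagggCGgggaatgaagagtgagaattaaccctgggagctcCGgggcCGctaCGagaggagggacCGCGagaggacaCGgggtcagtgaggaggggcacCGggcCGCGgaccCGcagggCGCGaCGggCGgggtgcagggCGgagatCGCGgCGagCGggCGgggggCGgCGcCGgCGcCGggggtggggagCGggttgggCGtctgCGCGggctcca

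These windows hold from 5 CG at Pax6 and 6 at Gdnf through 12 at Mecom, 15 at Nr2e1 and 22 at Sim1 to 36 at Macf1. The median over the 33469 windows of that length in the table was 5, and 35.9% of them held at least 10. Over protein-coding genes, of which 82.1% have a window, the median was 9 and 48.6% held at least 10. Pax6 and Gdnf lay below that median and the other 4 genes above it. No comparison of CG counts over all host genes is given, since only 75.9% of the 2812 have a window in the table.

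First-intron peaks lay nearer to a start site than later-intron peaks, and most were small. The median distance from the peak centre to the nearest TSS was 5170 bp (95% interval 4890 to 5417 bp, quartiles 1620 and 22590.5 bp) for the 8135 first-intron peaks. It was 32158.5 bp for the 12830 peaks centred in later introns and 35622 bp for all peaks. Centres closer than 5 kb made up 49.4% of first-intron peaks (4018), against 11.7% of later-intron peaks and 14.1% of all peaks. First introns adjoin the TSS and later introns do not, so much of this difference follows from how the classes are made.

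**Figure D1:**
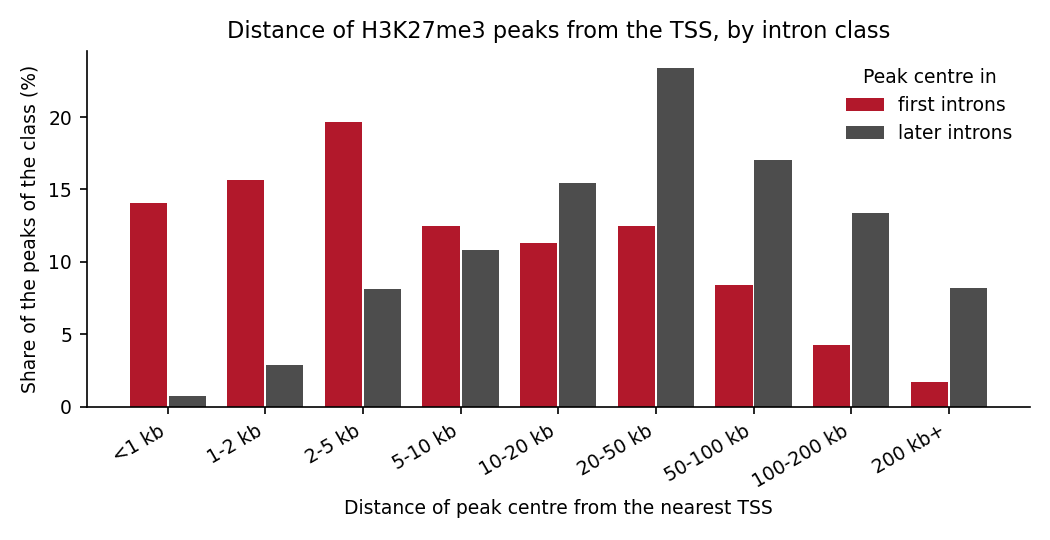
Share of peaks (vertical axis, %) by distance of the peak centre from the nearest TSS (horizontal axis, bins), for 8135 peaks in first introns (red) and 12830 in later introns (grey). The most filled bin is 2 to 5 kb for first introns (19.7%) and 20 to 50 kb for later introns (23.4%).

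Few of these peaks were far from a gene start. At 100 kb or more from a TSS lay 489 first-intron peaks (6.01%), against 21.6% of later-intron peaks, and the farthest was 442817 bp away, in Nrg1. By intron number, peaks in intron 1 made up 38.8% of the 20965 intronic peaks and those in intron 2 made up 16.1%. The length of first introns on rn5 was not analysed here, so these shares show no enrichment per base.

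Widths covered more than 2 orders of magnitude. The median width was 222 bp (95% interval 213 to 228 bp) in first introns, against 189 bp in later introns and 191 bp over all peaks. The smallest width in the list, 150 bp, was that of 3180 first-intron peaks (39.1%), against 47.0% of later-intron peaks and 45.2% of all peaks. At least 1 kb wide were 1469 first-intron peaks (18.1%, 95% interval 17.2 to 18.9%), compared with 9.84% of later-intron peaks and a background of 10.9% of all peaks. At least 5 kb wide were 147 (1.81%, against 0.928% in later introns and 1.01% of all peaks), and at least 10 kb wide were 36 (0.443%, against 0.218% in later introns and 0.259% of all peaks). The shares of peaks of at least 1, 5 and 10 kb were higher in first introns than in later introns and over all peaks, and the share of the smallest width was lower.

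Scores followed the widths. The median score was 5.36 (95% interval 5.16 to 5.57) in first introns, 4.33 in later introns and 4.54 over all peaks. A score at or above 9.9, the 75th percentile of the whole list, was reached by 2750 first-intron peaks (33.8%, 32.8 to 34.8%), against 23.3% of later-intron peaks and 25.1% of all peaks. Width and score rose together across first-intron peaks (Spearman rho 0.947, n = 8135 peaks of the same pooled libraries). Whether the score is a total over the width is not stated, so width and score may not be independent measures. The 1469 peaks of at least 1 kb held 79.3% of the summed score in first introns, against 63.9% in later introns and 67.2% over all peaks. The top 1% of peaks held similar parts, 27.5% in first introns, 27.3% in later introns and 29.6% over all peaks. First-intron peaks covered 6.05 Mb, 8.95% of the bases under peaks, and held 9.96% of the summed score of the list.

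The next question was whether first introns still stood apart at equal distance from the TSS. Within 5 kb the median score was 8.25 (95% interval 7.84 to 8.66, n = 4018) in first introns and 6.19 (5.57 to 6.81, n = 1507) in later introns, a ratio of 1.33 (1.15 to 1.55, from the outer ends of both intervals). Median widths there were 334.5 bp in first introns and 239 bp in later introns. Split further, the medians under 1 kb were 10.9 in first introns and 11.45 in later introns, where only 92 peaks lay, and the intervals overlapped. Between 1 and 2 kb they were 13.2 (10.9 to 15.7) in first introns and 9.49 (7.22 to 12.4) in later introns, again with overlapping intervals. Between 2 and 5 kb they were 5.78 (5.36 to 6.19) in first introns and 5.36 (5.16 to 5.98) in later introns, whose intervals overlapped too. The bins were filled unequally, and the bin from 2 to 5 kb held 39.8% of first-intron and 69.1% of later-intron peaks within 5 kb.

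Scores were lower farther from the TSS in both classes. In first introns the median score was 4.54 between 5 and 10 kb and between 3.92 and 4.33 in each bin beyond, against values between 3.92 and 4.74 for the bins beyond 5 kb in later introns. The share of peaks of at least 1 kb was highest between 1 and 2 kb, with 38.3% (35.7 to 41.0%) in first introns and 31.6% (27.1 to 36.5%) in later introns. Between 10 and 20 kb it was 7.74% in first introns and 10.2% in later introns, the reverse order, with overlapping intervals. Among peaks of at least 1 kb the median score per kb of width was 34.5 under 1 kb from the TSS and 28.5 at 10 to 20 kb in first introns, and 34.9 and 29.0 in later introns. Peaks within 5 kb held 75.4% of the summed score in first introns, 27.4% in later introns and 29.3% over all peaks.

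**Figure D2:**
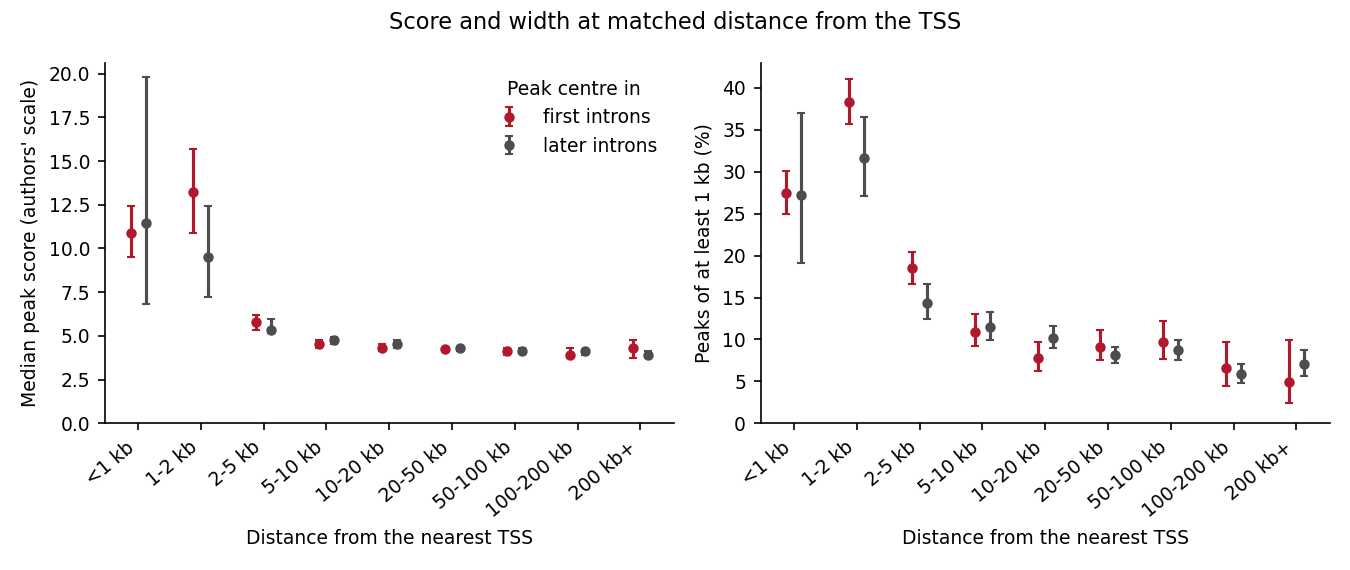
Median peak score on the authors' scale (left) and share of peaks of at least 1 kb in % (right), by distance of the peak centre from the nearest TSS, for first introns (red) and later introns (grey); bars are 95% intervals that cover counting error only. Both measures are highest within 2 kb in both classes, and the largest gap in median score is between 1 and 2 kb (13.2 in first introns against 9.49 in later introns).

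Peaks in the first intron mostly stopped short of the start site. Only 366 (4.50%, 4.07 to 4.97%) contained the nearest TSS and 1916 (23.6%, 22.6 to 24.5%) reached to within 1000 bp of it. The background over all peaks was 1.15% and 4.81%. First introns adjoin a TSS, so a higher share than over all peaks follows in part from how they were chosen. The choice can also lower the share, since it holds no peak centred on a start site. The smallest distance of a centre from a TSS was 104 bp in first introns and 1 bp over all peaks. The share rose with width. Of first-intron peaks between 2 and 5 kb wide 29.0% contained the TSS, of those between 5 and 10 kb 65.8% (56.5 to 73.9%) and of those of 10 kb or more 77.8% (28 of 36). In later introns the shares for those widths were 6.04%, 28.6% and 60.7%. Part of this rise is built in, since a peak contains the TSS where the distance is at most the width divided by 2. No peak of the smallest width could contain one, because the nearest first-intron centre lay 104 bp from a TSS. The 3180 smallest peaks had a median distance of 8498.5 bp.

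**Figure D3:**
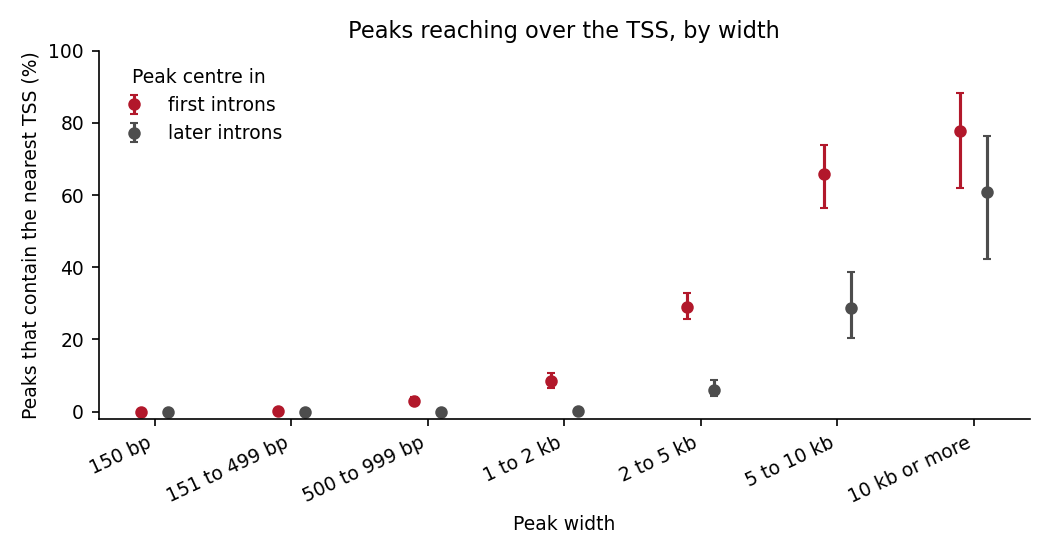
Share of peaks that contain the nearest TSS (vertical axis, %) by peak width (horizontal axis, classes), for first introns (red) and later introns (grey), with 95% Wilson intervals. The share is 77.8% in first introns and 60.7% in later introns at 10 kb or more; at the smallest width a first-intron peak could not contain a TSS, since no centre lay closer than 104 bp to one.

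The number of introns of the host transcript went with small differences in the typical peak. Transcripts with a single intron held 582 first-intron peaks with a median score of 5.78 (5.16 to 6.60), and those with more than 16 introns held 1592 with a median of 5.36 (4.95 to 5.78). The broad peaks were spread less evenly. Of the peaks in transcripts with 1 intron 20 of 582 were at least 5 kb wide, and with 2 introns 20 of 580, against 37 of 1813 with 5 to 8 introns and 11 of 1592 with more than 16. Six2, Six6 and Gdf6 are among the single-intron genes with such a peak.

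First-intron peaks lay on all 21 chromosomes of the list. Their share of a chromosome's peaks was highest on chromosome 10 (8.08%, 738 peaks) and lowest on chromosome 17 (3.89%, 191 peaks). A single gene of chromosome 10, Asic2, held 136 of its 738, so this order depends in part on single genes. On the X chromosome, present as a single copy in these males, they were 72 of 1285 peaks (5.60%).

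The host gene of an intron is not always the gene that the list names for the peak, since the list names the gene of the nearest TSS. A host gene was found for 8131 of the 8135 peaks, by transcript accession, and these peaks fell in 2812 genes. For 7563 peaks (93.0%) the host was also the nearest gene, and of these 98.5% lay downstream of its TSS. For 568 peaks the nearest TSS belonged to another gene, and their median distance was 52546.5 bp, against 4491 bp where both genes were the same. Non-coding transcripts hosted 111 of the peaks, in 21 genes. In 76 peaks of 19 genes, the host gene is on another chromosome in GRCr8 than on rn5, and 49 of these peaks belong to Bc1.

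Genes differed in how many peaks their first intron held. A single peak was found in 1340 host genes, 2 to 4 in 1082, 5 to 9 in 274, and 10 or more in 116 genes, which together held 2249 peaks (27.6%). With scores at or above the median of the list 40 genes had 10 or more, and after peaks within 5 kb were merged 13 had. Peaks that were alone in their intron lay close to the TSS, with a median distance of 1204 bp and a median score of 8.98, and 14.3% contained it. In genes with 10 or more, the median distance was 39790 bp and the median score 4.54, and 1.07% contained the TSS. The best peak of a gene was nevertheless highest where peaks were many, with a median best score of 84.15 in genes with 10 or more and 17.5 over all host genes. A gene with more peaks has more chances of a high maximum.

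The 15 genes with most first-intron peaks had between 34 and 136 each. Asic2, an acid-sensing sodium channel of neurons, led with 136 peaks spread over 934 kb of chromosome 10 (68048083 to 68981698), at scores between 2.48 and 110.6 with a median of 3.71. Of these 75 had the smallest width and none contained a TSS. For 76 of them the nearest TSS was that of the microRNA gene Mir6327, which lies within the same span, and for 60 that of Asic2 itself. Merging peaks within 5 kb left 45 loci, the most of any gene.

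Kirrel3, a synaptic adhesion protein, had 73 peaks over 423 kb of chromosome 8, of which 25 were nearest to St3gal4. Its highest peak, of 5244 bp with a score of 340.3, contained the Kirrel3 TSS, and the median of its scores was 4.54. Mecom, a zinc finger factor of blood stem cells, had 56 peaks over 287 kb of chromosome 2 (137368565 to 137655103), the closest centred 10730 bp from its TSS. Its highest first-intron peak scored 509.3 and was 6840 bp wide, 38749 bp inside the gene. Macf1, a large linker of actin and microtubules, had 55 peaks in 126 kb of chromosome 5, with a median score of 9.08, the highest median among the 15 leading genes. These merged into only 4 loci, the longest of 59.2 kb with 29 peaks, and none reached within 1000 bp of the TSS. Asic2 peaks were thus many and mostly small, whereas those of Macf1 lay close together.

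Among the 15 leading genes were also the neuregulin genes Nrg1 and Nrg2, which encode ligands of ErbB receptors. Products of Nrg1 signal from axons to Schwann cells. Nrg2 had 44 peaks (highest score 184.6) and Nrg1 had 34, spread over 991 kb of chromosome 16 in the first introns of 3 transcripts. The highest Nrg1 peak scored 114.3, and 3 of the 34 reached within 1000 bp of a TSS. Kcnip1, a regulator of potassium channels, had 44 peaks, 27 of them nearest to Gabrp or Kcnmb1. The adhesion gene Cadm1 had 42, with a highest score of 275.4, and the axon guidance ligand gene Efna5 and the glycosyltransferase gene Galnt14 had 36 each. Cacng2, which encodes a partner of AMPA receptors, and Syn2, a synaptic vesicle gene, had 34 each, with highest scores of 38.8 and 229.6.

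In a few of the leading genes most peaks were nearest to other genes. The 49 peaks placed in intron 1 of Bc1, a short neuronal non-coding RNA, covered 194 kb of chromosome 5, and all were nearest to Zbtb40 (34) or Wnt4 (15). In GRCr8 Bc1 is on another chromosome, so the host assignment of these 49 peaks is doubtful. All 35 peaks placed in Arsj, an arylsulfatase gene, covered 351 kb and were nearest to Sec24b (32) or Casp6 (3). The 35 peaks placed in Ccdc40, a gene of motile cilia, covered 275 kb. Of these 4 were nearest to Ccdc40, 6 to Enpp7 and 2 to Gaa. Another 21 were nearest to Cbx8 and 2 to Cbx2, which encode Polycomb proteins. The highest of the 35, of 6637 bp with a score of 534.4, was centred at -11820 bp from the Cbx8 TSS, upstream of it. Arsj and Ccdc40 kept their chromosome in GRCr8, but that check cannot find a wrong placement within a chromosome. Their host assignments are therefore uncertain too. Counted by the nearest gene, 9 of the 15 leading genes were the same and Mir6327 led with 76 peaks.

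**Figure D4:**
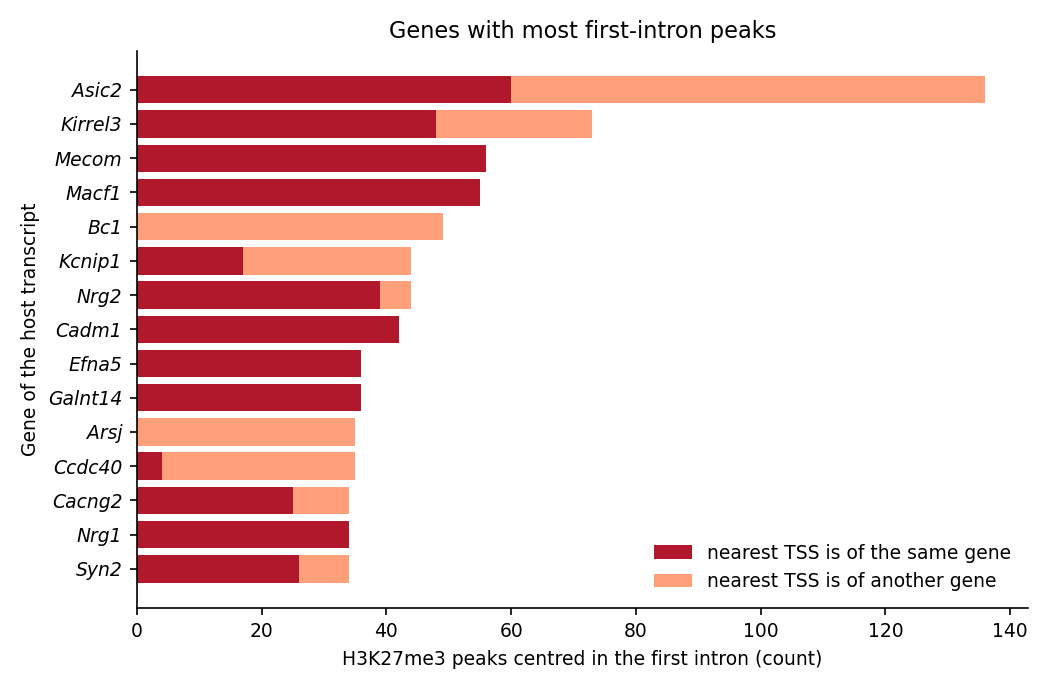
Number of H3K27me3 peaks centred in the first intron (horizontal axis) of the 15 genes with most of them (vertical axis), by gene of the host transcript; dark bars are peaks whose nearest TSS belongs to the same gene, light bars those nearest to another gene. Asic2 has 136, of which 60 are nearest to Asic2, and all peaks of Bc1 and Arsj are nearest to other genes. The host assignment to Bc1 is doubtful, since that gene is on another chromosome in GRCr8, and those to Arsj and Ccdc40 are uncertain.

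The highest-scoring first-intron peaks were broad regions, mostly over a gene start. Of the 15 genes with the highest first-intron peak, 8 are on the list of developmental transcription factors described below, against 1 of the 15 with most peaks (Mecom). Over all 2812 host genes 32 are on it. The list is not complete, and Nr2e1, Emx2, Tlx1, Evx1, Tal1 and Cdx2 of the highest 15 are not on it. Each of the 15 genes with the highest peak had exactly 1 first-intron peak, and 14 of these 15 peaks contained the TSS. None of the 15 is among the 15 genes with most peaks. Pax6, a regulator of eye and brain, had the highest score (2802, chromosome 3, 102313626 to 102346220, 32594 bp, centre 2697 bp inside the gene). Sim1, a factor of hypothalamic neurons, had the widest peak (34161 bp, score 2388, chromosome 20, 57182313 to 57216474).

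Among the others were Nr2e1, which maintains neural stem cells (27543 bp, score 2121), Emx2, a factor of the developing cortex (28341 bp, 2011), and Evx1, a factor of spinal interneurons (21849 bp, 1731). The peak of Tlx1, needed for the spleen, was 26576 bp wide and scored 1920, and that of Pax5, the B cell factor, was 23935 bp wide and scored 1775. Six2, which maintains kidney progenitors, followed (22318 bp, 1491), and the eye factor Six6 was lower (16096 bp, 1195). Tbx5, a factor of heart and forelimb (23382 bp, 1384), Tal1, a factor of blood formation (17747 bp, 1307), Cdx2, a gut factor (20420 bp, 1162), and Pax7, a factor of muscle stem cells (19475 bp, 1117), followed. Sim2 was the exception in position, with a peak of 17658 bp (score 1438) centred 8850 bp inside the gene that stopped just short of the TSS. The non-coding gene LOC102553190, which the list also calls Lhx1os, had 30973 bp with 2098 on chromosome 10 (71747867 to 71778840).

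Of the 147 first-intron peaks of at least 5 kb, in 144 genes, 101 (68.7%) contained the TSS and 14 were centred 10 kb or more from it. The highest of these distant ones lay in Lhx4, a factor of pituitary and motor neurons (14441 bp, score 1096, 16969 bp from the TSS). Like Ctdspl, Clybl, Cd247 and Cdh22 below, Lhx4 was chosen after its values were seen. It was followed by Aldh1a2, a retinoic acid synthesis enzyme (22317 bp, 967, 18467 bp from the TSS, the tenth widest first-intron peak). Ctdspl, a phosphatase gene, held a pair of peaks separated by only 386 bp, of 13505 bp (score 882.8) and 12816 bp (score 965.8), which together spanned 26.7 kb of chromosome 8 (126355180 to 126381887). Their nearest TSS was that of Golga4, from which their centres lay at -32010 and -18463 bp. Clybl, a mitochondrial enzyme gene, held peaks of 10553 bp (488.4) and 8123 bp (299.9) at 84410 and 53866 bp from its TSS. Cd247, a T cell receptor subunit gene, held a peak of 9595 bp (365.5), and the cadherin gene Cdh22 held one of 7548 bp (292.5) next to another of 6667 bp (232.1).

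Lists of genes that fit the tissue and the mark were then read for first-intron peaks, without a test. They were chosen with earlier results of these data known. Among all protein-coding genes of GRCr8, 12% hosted at least 1 first-intron peak and 7.35% hosted one with a score at or above the 75th percentile. That background counts all 23148 such genes, and any without an intron on rn5 cannot be a host. Neither it nor the shares of the lists take the length of first introns into account. Among 100 developmental transcription factors 32 were hosts, 28 of them with a score at or above the 75th percentile. Their median best score was 314.65, against 17.5 over all host genes. In this list 14 of the 32 hosts had a first-intron peak over the TSS, against 365 of all 2812 host genes, and Pax6, Sim1, Pax5 and Six2 were at its top.

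Ion channel and neurotransmitter receptor genes had the largest share of hosts among the 7 longer lists with any host, 51 of 75, with a median best score of 52.8. The kainate receptor gene Grik3 had 23 peaks, the highest of 8634 bp with a score of 385.1, and the calcium channel gene Cacna1e had 6, the highest of 7370 bp (372.3) over the TSS. Grid1, a glutamate receptor gene of the delta class, had 1 peak (176.8). Axon guidance genes had 26 hosts of 41 and a median best score of 84.95. The repulsive cue Sema3a led them (5779 bp, 224.6, over the TSS), before the ligand gene Slit1 (218), Rgma (165.2), a repulsive cue, and the netrin receptor gene Unc5b (160.9), whose highest peak lay 30355 bp inside the gene.

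Signalling genes had 44 hosts of 72 with a median best score of 75.7. Gdf6, a BMP family ligand, had the highest peak (8640 bp, 672.2, over the TSS), and the Wnt antagonist gene Sfrp2 (7951 bp, 397.3) and the ligand gene Bmp7 (6595 bp, 301.4) were also among its highest. Synaptic adhesion and scaffold genes had 30 hosts of 58, with a median best score of 20.75 and a median peak distance of 39259 bp, against 5184 bp over all hosts. After Kirrel3 the highest belonged to the postsynaptic scaffold gene Dlgap2 (259.1), the presynaptic adhesion gene Nrxn2 (177.2) and the lipoprotein receptor gene Lrp1b (150.2). The median best score of this list was close to that of all hosts. Its median distance is over peaks, not genes, and Kirrel3 alone held 73 of the 177 peaks. In 7 of the 30 hosts a first-intron peak contained the TSS.

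Of 43 nerve injury and repair genes 19 were hosts, 16 with a score at or above the 75th percentile, and their median best score was 81.5. The trophic factor gene Gdnf had 1 first-intron peak, scored 480.6 and 9500 bp wide (chromosome 2, 76897115 to 76906615). The morphogen gene Shh also had 1, scored 450.7 and 10795 bp wide (chromosome 4, 712106 to 722901). Both contained the TSS, with centres 4304 and 3070 bp inside the genes. Fgf5, a growth factor gene, had 2 peaks (362.2 and 119.6), and the higher covered the TSS. Ngfr, the low-affinity neurotrophin receptor gene, had 1 of 6321 bp with a score of 288.4, which stopped before the TSS. Bdnf, a neurotrophin gene, had 9 with scores between 3.09 and 142.3, none of which contained the TSS. Igf1, a growth factor gene, had 2, the higher at 13.6. Jun and Sox2 are genes without introns and cannot host such a peak. For Runx2 no peak was centred in a first intron, and the list names it as nearest gene for 45 peaks.

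Of 35 myelin and mature Schwann cell genes 20 were hosts, with a median best score of 12.35. The adhesion gene Cntn2 led (6690 bp, 264.9, over the TSS), followed by Nfasc, a protein of the node of Ranvier, with 9 peaks (highest 143.4), the neuregulin receptor gene Erbb3 (117.2) and Fa2h, a myelin lipid enzyme gene, with 7 (highest 81.9). Egr2, the regulator of myelination, had 1 peak, scored 72.6 and 2215 bp wide, centred 1272 bp inside the gene and not over the TSS. Among 8 Schwann cell markers 6 had first-intron peaks. Erbb3, Egr2 and Mbp (2634 bp, 77.4) had peaks above 70 in score, while that at Pmp22 was small (5.98). The mark does not measure expression, so marker genes cannot check here which cells the tissue held.

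Markers of other nerve cell types were read against the same background of 12% hosts. Among 7 fibroblast and perineurial markers 3 were hosts, Cldn1 (highest score 55.1), Pdgfra (11.8) and Dcn (3.30), and among 6 endothelial and mural markers 3 were, Kdr (65.6), Acta2 (22.1) and Pdgfrb (5.16). Of these hosts Cldn1, Kdr and Acta2 lay above the median best score of all host genes. None of the 5 leukocyte markers was a host, and neither was any of 34 housekeeping genes found in the tables. A gene without an intron on rn5 cannot be a host, and how many list members lack one was not analysed here.

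**Figure D5:**
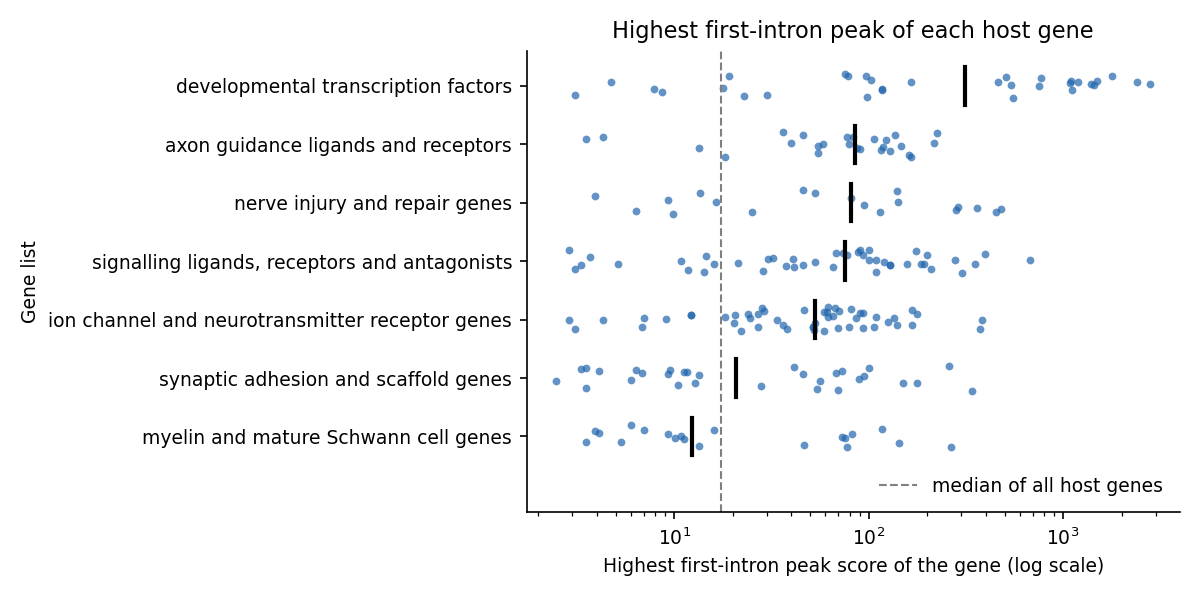
Highest first-intron peak score of each host gene (points, horizontal log axis, authors' scale) in 7 gene lists (vertical axis), with the median of each list (black bar) and of all host genes (dashed line, 17.5). Developmental transcription factors reach furthest right, with a median of 314.65, and myelin and mature Schwann cell genes have a median of 12.35.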

How the data were processed

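H3K27me3 was profiled in sham-operated rat sciatic nerve by micrococcal nuclease ChIP with sequencing, in 2 H3K27me3 and 2 input libraries. The submitters' processing notes name CASAVA 1.8.2, Bowtie and HOMER. HOMER annotated a combined H3K27me3 sham peak list against rn5, per the file headers. How peaks were called, whether input was used and how replicates were joined is not stated in the labels or headers. The score of each peak was deposited by the authors without a stated scale, and depth per library is unknown. Peak width (equal to end minus start in 100% of peaks), position and signed distance from the peak centre to the nearest TSS were deposited too, in bp. The width of the pooled list could depend on settings that are unknown, and narrow neighbouring peaks may be pieces of a domain.

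Host genes were matched by RefSeq accession to the list's own columns or to a gene table of GRCr8, used for names, chromosomes and gene types only. A peak contained the TSS where the distance was at most the width divided by 2, and reached it with 1000 bp added. Medians have 95% order-statistic intervals and shares 95% Wilson intervals. No test was made, since the list has no value per library. The parsing and intervals were tested on simulated data. Named genes were the 15 with most first-intron peaks, the 15 with the highest and the 10 with the widest such peak, the 4 highest of each of 12 lists, and 10 genes named in any case. Any other gene is marked as such in the text or named only as the nearest gene of a peak, and a few genes that the rule names are not reported here. The members and lists were chosen with earlier results of these data known. Alternatives changed the score minimum, the annotation column, the smallest width, the gene assignment and the merging of peaks. Python 3.11.15, pandas 2.3.3, NumPy 2.4.6, SciPy 1.17.1 and matplotlib 3.10.9 were used.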

Additional observations from a re-analysis of the deposited data

How the results depend on the processing

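The ratio of median scores of first over later introns within 5 kb of a TSS stayed above 1 under each of 4 alternatives, between 1.23 and 1.42. None of these evened out the unequal filling of the distance bins within 5 kb. In each of those bins the intervals of both classes overlapped, and under 1 kb the order was reversed (10.9 in first and 11.45 in later introns). The median score of first-intron peaks stayed within its interval with the basic annotation column and with peaks whose host is the nearest gene. Other values moved. With scores at or above the median the share of first-intron peaks was 7.06%, their median distance 3394.5 bp, width 538 bp and score 12.8. With scores at or above the 75th percentile these were 8.46%, 2247.5 bp, 1083.5 bp and 29.8. Without the smallest width they were 6.98%, 3615 bp, 490 bp and 11.8. These settings remove small peaks by construction. The basic annotation column, which keeps peaks on repeats and CpG islands, gave a share of 8.41%, a median distance of 6211 bp and a median width of 206.5 bp. With peaks whose host is the nearest gene the median distance was 4491 bp. The number of genes with at least 10 first-intron peaks was 116, against 40 with scores at or above the median and 13 after peaks within 5 kb were merged, and Asic2 led in both. No paired analysis was possible because the list pools the libraries and no value belongs to a replicate, so none could be left out either. Depth per library is unknown, and the lowest scores are the least certain.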

Other observations

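Intron 1 also held 2763 peaks that the detailed annotation labels by a repeat or a CpG island. Of these 1023 were centred in SINE elements (median score 4.54), 595 in LINE elements (4.13), 530 in LTR elements (4.13) and 144 in CpG islands. The CpG island peaks lay closest to the TSS, with a median distance of 642 bp, and had a median score of 11.3 and a median width of 473.5 bp, and 54.2% reached the 75th percentile of scores, against 19.7% of the LINE peaks. Several broad domains of regulators are among the labelled peaks. Alx4, a limb and skull factor, had a CpG island peak of 14107 bp with a score of 960.4. Gad1, which encodes a GABA-synthesising enzyme, had one of 14527 bp with 753.9. In Tbx20, a heart factor, the centre of a peak of 23789 bp (score 1555) fell on a simple repeat. In Mecom a CpG island peak of 9822 bp (733.1) lies next to the highest unlabelled peak of that first intron. These genes were chosen after their values were seen.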
